A study of Mus musculus with 8 samples.

Results

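The 10 genes described here encode the transglutaminases TGM1, TGM3 and TGM5, the plakins envoplakin (Evpl) and periplakin (Ppl), and 5 proteins of the upper epidermis: cornifelin (Cnfn), corneodesmosin (Cdsn), caspase-14 (Casp14), the aspartic protease ASPRV1 (Asprv1) and keratinocyte differentiation-associated protein (Krtdap). They were chosen by symbol, and all 10 of them were found among the 46983 genes of the deposited count table and passed the filter on low counts. RNA was sequenced from the tail epidermis of 8 mice, each 8 weeks old and each giving 1 library. The 4 CTR mice carried K14-Cre and the Ppp1r8 genotype fl/+, and the 4 SKO mice carried K14-Cre and the genotype fl/-. Strain names for both groups were Tg(KRT14-cre)1Amc/J, Ppp1r8tm1Ave and Ppp1r8tm1.1Itl. By genotype, the controls also carried the Cre transgene and 1 floxed allele, so that Cre would leave them only the + allele. The keratin 14 promoter drives Cre in basal keratinocytes and hence in their descendants, hair follicle cells included, whereas immune cells and melanocytes in the sheet are outside its usual range. Ppp1r8 encodes NIPP1, a nuclear regulator of the protein phosphatase PP1, and the study asked what this protein does in the epidermis.

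As background, the cornified envelope is the insoluble protein shell that replaces the plasma membrane when a granular keratinocyte dies to become a corneocyte. Envoplakin and periplakin form the early scaffold under the membrane, and transglutaminases then join scaffold and later substrates by bonds between glutamine and lysine residues. TGM1 is anchored in the membrane, TGM3 is made as a precursor that proteases activate, and TGM5 also acts in the upper layers. Corneodesmosin holds corneocytes together, and caspase-14 and ASPRV1 take part in filaggrin processing. In mouse tail, the interscale epidermis has a granular layer and the scale epidermis lacks one.

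Of the 10 genes, Tgm3, Tgm5 and Asprv1 rose in SKO and 0 fell. Tgm5 rose 1.91-fold, Asprv1 1.81-fold and Tgm3 1.39-fold (quasi-likelihood test of edgeR, Benjamini-Hochberg adjusted p = 0.00102, 0.00459 and 0.012, n = 4 per group). Among all 15638 genes tested, 11.5% were called higher, 12.2% lower and 23.7% in either direction at the same threshold (adjusted p below 0.05). At an unadjusted p below 0.05, 3 of the 10 genes were higher and 0 lower, against 18.4% and 19.2% of all tested genes. DESeq2 called 3 higher and 0 lower, against 11.7% and 12.7% of the 17870 genes to which it gave an adjusted p, and 3 genes were called by both tools. With mice of neighbouring animal numbers taken as pairs (a replicate block added after the data were seen), 4 were higher, Krtdap being the addition, and 0 lower. The same 3 genes were the ones whose SKO libraries all lay above all CTR libraries, against 12.8% of all tested genes. No gene of the 10 had all SKO libraries below all CTR libraries, against 13.3% of all tested genes. The median log2 fold change of the 10 genes was 0.12, beside 0.00 (-0.0026) over all tested genes. The median absolute log2 fold change was 0.13 for the 10 genes and 0.22 for all tested genes.

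**Figure D1:**
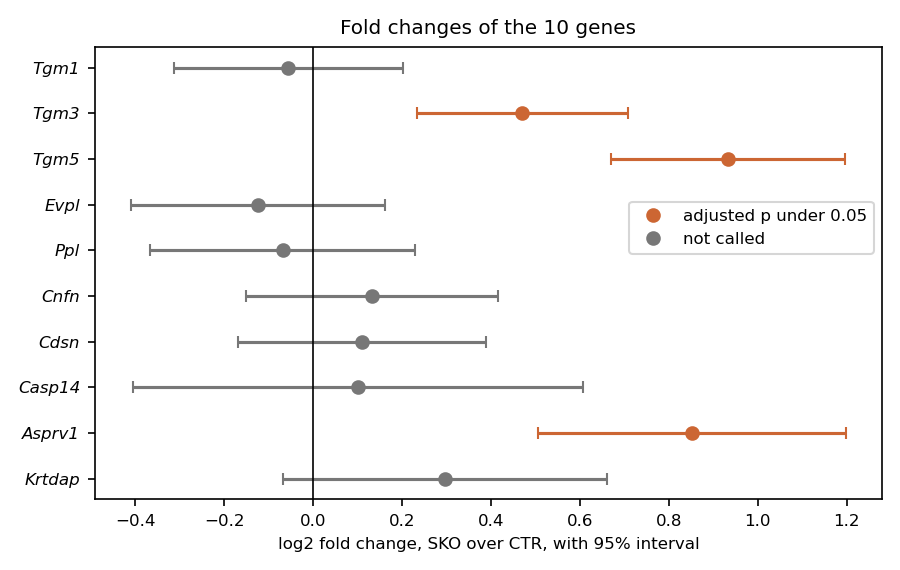
Log2 fold change of each gene, SKO over CTR (x axis), with its 95% interval from the edgeR fit of 4 against 4 libraries; orange marks genes with an adjusted p below 0.05. The intervals of Tgm3, Tgm5 and Asprv1 lie above 0, and those of the other 7 genes include it.

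The promoters of the 3 genes that rose are shown because they allow a look at what these genes share upstream, and that of Krtdap is shown as a gene called only in the paired fit. RefSeq promoter sequences (GRCm38.p6) were found for 8 of the 10 genes. Each sequence lies upstream of the RefSeq start on the strand of the gene. Those of Tgm3 and Tgm5 run up to that start, while those of Asprv1 and Krtdap stop before the GENCODE start, which lies further upstream. Capitals mark matches to the motifs listed after the sequences. The windows are chr2:130012090-130012339 (plus strand) for Tgm3, chr2:121085842-121086091 (minus strand) for Tgm5, chr6:86627924-86628163 (plus strand) for Asprv1 and chr7:30787655-30787895 (plus strand) for Krtdap.
Tgm3: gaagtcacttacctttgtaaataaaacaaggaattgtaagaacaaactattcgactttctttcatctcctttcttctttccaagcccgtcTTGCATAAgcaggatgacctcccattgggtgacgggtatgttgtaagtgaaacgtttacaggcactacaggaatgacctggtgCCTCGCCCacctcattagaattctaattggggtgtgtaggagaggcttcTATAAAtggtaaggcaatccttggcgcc
Tgm5: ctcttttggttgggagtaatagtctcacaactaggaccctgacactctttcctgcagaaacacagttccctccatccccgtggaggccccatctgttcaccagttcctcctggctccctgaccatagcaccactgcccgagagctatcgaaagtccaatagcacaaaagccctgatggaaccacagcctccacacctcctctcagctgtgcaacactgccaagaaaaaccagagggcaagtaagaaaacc
Asprv1: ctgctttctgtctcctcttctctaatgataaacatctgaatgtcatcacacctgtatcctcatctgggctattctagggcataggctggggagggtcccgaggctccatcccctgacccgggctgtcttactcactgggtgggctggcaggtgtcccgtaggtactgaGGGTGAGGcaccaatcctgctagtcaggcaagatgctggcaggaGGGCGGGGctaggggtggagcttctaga
Krtdap: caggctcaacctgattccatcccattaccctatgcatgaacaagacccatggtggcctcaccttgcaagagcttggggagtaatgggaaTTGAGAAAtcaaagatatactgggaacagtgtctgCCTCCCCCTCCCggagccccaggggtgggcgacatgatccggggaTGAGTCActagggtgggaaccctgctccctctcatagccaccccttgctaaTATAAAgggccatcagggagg
Motifs were searched on both strands over 250 bases before the RefSeq start. AP-1 (TGANTCA) had a match in 6.75% of 32851 windows of all genes, C/EBP (TTNNGNAA) in 36.8%, grainyhead (AACCNGTT) in 1.79%, the TATA box (TATAAA) in 12.4%, and the KLF or SP motif (CCNCNCCC) in 45.9%. Tgm3 had 1 C/EBP match, 1 KLF or SP match and 1 TATA box, which began 28 bases before the RefSeq start. Asprv1 had 2 KLF or SP matches and none of the others, and Tgm5 had 0 matches to any of the 5. Krtdap had 1 AP-1 match, 1 C/EBP match, 1 TATA box and 2 KLF or SP matches that overlap each other. No motif was present in all 3 promoters of the genes that rose. Among the other genes with a window, Casp14 had 3 KLF or SP matches, Cnfn had 2, both windows of Cdsn had 1 together with 1 C/EBP match, and of the 2 windows of Tgm1 only 1 had a match, to KLF or SP. These matches describe letters in the windows and do not identify bound sites.

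Library totals ranged from 16696212 to 21571935 counts, and levels are given as CPM, counts scaled to the size of each library. On that scale 3 counts were worth between 0.141 and 0.186 CPM. The lowest count of any of the 10 genes in any library was 510 (Tgm5) and the highest 33878 (Asprv1), so counting error was small beside the spread between mice. Ppp1r8 itself averaged 37.9 ± 3.58 CPM in the CTR libraries and 36.4 ± 8.00 CPM in the SKO libraries (SD, adjusted p = 0.789 by edgeR), which does not check the labels, as the sources used here do not say which exons Cre removes. No library had counts for any of 4 Y-linked genes, and Xist was lower in SKO (792 ± 153 CPM in CTR and 419 ± 114 CPM in SKO, edgeR adjusted p = 0.00817), with no overlap of the groups. The defining keratinocyte genes Krt5, Krt14, Krt1, Krt10 and Trp63 were all detected in every library, with summed levels of 29456 to 33980 CPM in CTR and 53485 to 69687 CPM in SKO. Of these 5 genes, 2 were called higher and 0 lower by edgeR. Krt1 went from 2488 ± 430 CPM in CTR to 18366 ± 4854 CPM in SKO, and Krt10 from 15650 ± 611 to 31131 ± 3704 CPM. The higher sum thus does not stand for all 5 genes, and Trp63 had a log2 fold change of -0.14. Hair shaft and inner root sheath markers were lower in SKO, with 9 of 10 tested genes called lower in each list. Their summed levels were 2843 to 5184 CPM in CTR and 149 to 1378 CPM in SKO for the hair shaft, and 4785 to 9127 CPM in CTR and 290 to 3098 CPM in SKO for the inner root sheath. Summed levels in CTR and SKO were 884 to 1312 and 1434 to 1977 CPM for 7 sebaceous gland markers, 234 to 346 and 319 to 537 CPM for 6 melanocyte markers, and 106 to 142 and 181 to 261 CPM for 5 Langerhans cell markers. They were 20.5 to 31.3 and 25.1 to 32.4 CPM for 6 T cell markers, 12.9 to 18.1 and 17.1 to 21.3 CPM for 5 macrophage markers, and 33.8 to 52.7 and 17.5 to 56.1 CPM for 6 dermal fibroblast markers. By edgeR, 3 of 7 sebaceous gland, 4 of 6 melanocyte, 5 of 5 Langerhans cell and 3 of 4 tested T cell genes were called higher. Called lower were 1 melanocyte and 1 T cell gene, and 0 macrophage or fibroblast genes were called. Among all tested genes, 11.5% were called higher and 12.2% lower. Endothelial, skeletal muscle and neutrophil lists summed to at most 2.55, 0.741 and 10.95 CPM. The part that other cell types have in the results below was not tested. In bulk tissue, fewer cells of a type and less RNA per cell cannot be told apart.

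Tgm1, the membrane-anchored enzyme whose loss in humans causes lamellar ichthyosis, had similar levels in both groups (ENSMUSG00000022218.15, GRCm38 chromosome 14, 55700009 to 55713926, minus strand). Its levels were 212, 231, 244 and 244 CPM in CTR 1 to 4 and 181, 209, 269 and 236 CPM in SKO 1 to 4. The SKO libraries lay on both sides of the CTR range, with SKO 1 lowest and SKO 3 highest. CTR averaged 232 ± 15.2 CPM and SKO 224 ± 37.6 CPM (SD over 4 libraries), with a log2 fold change of -0.06 (SE 0.12, 95% interval -0.31 to 0.20, edgeR adjusted p = 0.757). A change beyond 1.15-fold higher was outside this interval, and the sign depended on SKO 1, without which the value was 0.038.

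Tgm3, the transglutaminase of both the granular layer and the hair follicle, was higher in every SKO library than in any CTR library (ENSMUSG00000027401.9, chromosome 2, 130012349 to 130050399, plus strand). CTR 1 to 4 had 271, 293, 328 and 283 CPM, and SKO 1 to 4 had 398, 389, 486 and 353 CPM. The gap between the groups was narrow, from 328 CPM in the highest CTR library to 353 CPM in the lowest SKO library. The means were 293 ± 24.6 CPM in CTR and 407 ± 56.7 CPM in SKO, a log2 fold change of 0.47 (SE 0.11, 95% interval 0.23 to 0.71). Beside this, the hair shaft marker sums were 149, 836, 1378 and 270 CPM in SKO 1 to 4. SKO 3 was highest in both, whereas the lowest library was SKO 4 for Tgm3 and SKO 1 for the hair markers, and the part of hair cells in the Tgm3 level was not tested.

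Tgm5, the transglutaminase whose loss in humans causes peeling of the outer skin, had the lowest adjusted p of the 10 genes (ENSMUSG00000053675.8, chromosome 2, 121046111 to 121085841, minus strand). Its levels were 26.1, 28.9, 38.3 and 33 CPM in CTR 1 to 4 and 58.9, 60.2, 67.0 and 54.8 CPM in SKO 1 to 4. The lowest SKO library was well above the highest CTR library. The means were 31.6 ± 5.29 CPM in CTR and 60.2 ± 5.08 CPM in SKO, a log2 fold change of 0.93 (SE 0.12, 95% interval 0.67 to 1.196), and the adjusted p was at most 0.00387 under each of 16 alternative settings.

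The 3 enzymes moved by unequal amounts. This was read from the ratio of their counts within each library, which does not depend on scaling and was not corrected for gene length. The log2 ratio of Tgm5 to Tgm1 was -3.02, -2.99, -2.67 and -2.89 in CTR 1 to 4 and -1.62, -1.79, -2.01 and -2.10 in SKO 1 to 4. For every 100 Tgm1 counts there were thus about 13.5 Tgm5 counts in CTR and 27.1 in SKO (geometric means). The log2 ratio of Tgm3 to Tgm1 was 0.35, 0.35, 0.43 and 0.21 in CTR and 1.13, 0.90, 0.85 and 0.58 in SKO. That of Tgm3 to Tgm5 was 3.37, 3.34, 3.10 and 3.10 in CTR and 2.76, 2.69, 2.86 and 2.69 in SKO. In each of these 3 ratios every SKO library lay apart from every CTR library. The differences, SKO minus CTR, were 1.01 for Tgm5 to Tgm1, 0.53 for Tgm3 to Tgm1 and -0.48 for Tgm3 to Tgm5. Each had an exact two-sided permutation p of 0.0286, the smallest that 70 assignments allow, and an adjusted p of 0.0357 over 5 ratios (n = 4 per group). Mice of neighbouring animal numbers were not taken as pairs in this test. With CTR 1, CTR 2, CTR 3 or CTR 4 left out, the adjusted p of these ratios in the exact test was 0.0714, and with any 1 SKO library left out it was 0.0357.

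**Figure D2:**
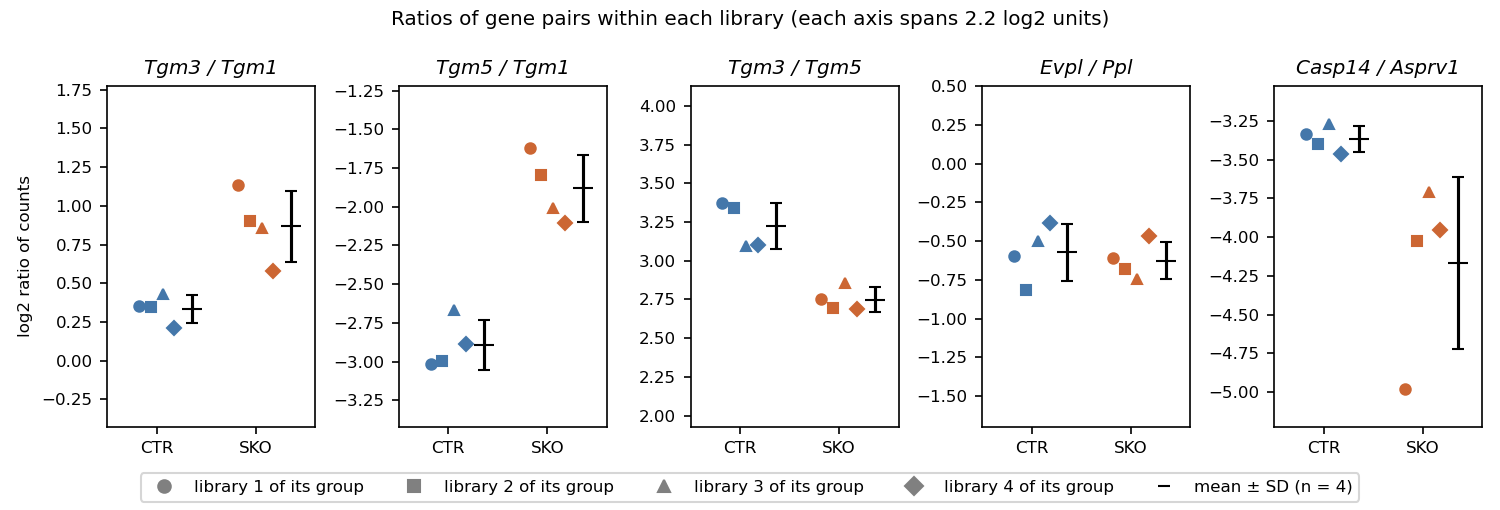
Log2 ratio of the counts of 2 genes within each library (y axis), for 5 gene pairs in CTR (blue) and SKO (orange); symbols mark the library number, and black bars give the mean ± SD of 4 libraries. The groups are apart for every pair but Evpl to Ppl.

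Counted per kilobase of exon, Tgm1 and Tgm3 were at like levels in CTR and Tgm5 was far lower. Tgm1 had 73.5 ± 4.80, Tgm3 71.0 ± 5.96 and Tgm5 10.0 ± 1.68 CPM per kilobase in CTR. In SKO these were 70.8 ± 11.9, 98.3 ± 13.7 and 19.1 ± 1.61 CPM per kilobase. Tgm5 thus stayed the least abundant of the 3 enzymes' transcripts after its rise.

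The other members of the transglutaminase family were at low levels or not called, and Epb42, itself at a low level, was the one called. Of 6 such genes, 3 passed the low-count filter, 1 rose and 0 fell, with a median log2 fold change of 0.11. Tgm2, the widely expressed enzyme, had 14.4 ± 2.47 CPM in CTR and 15.5 ± 4.65 CPM in SKO (adjusted p = 0.749), and Tgm6, which lies next to Tgm3, had 121 ± 14.2 and 83.3 ± 43.3 CPM (adjusted p = 0.254). Epb42, the catalytically inactive band 4.2 protein gene of red cells, is named after its values were seen. It had 8 counts over the CTR libraries and 68 over the SKO libraries (0.0970 ± 0.0674 and 0.872 ± 0.216 CPM, adjusted p = 0.00208 by edgeR). It lies 9038 bases from Tgm5, between 121017891 and 121037072 on chromosome 2. Tgm7, 7723 bases beyond the other end of Tgm5, had 11 counts over the CTR libraries and 6 over the SKO libraries.

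The plakins did not change detectably. Evpl (ENSMUSG00000034282.3, chromosome 11, 116220559 to 116238077, minus strand) encodes the larger subunit of the envoplakin and periplakin pair. Its levels were 493, 479, 579 and 542 CPM in CTR 1 to 4 and 376, 440, 555 and 549 CPM in SKO 1 to 4. SKO 1 and SKO 2 lay below every CTR library, while SKO 3 and SKO 4 lay within the CTR range. The means were 523 ± 46.0 and 480 ± 87.2 CPM, a log2 fold change of -0.12 (SE 0.13, 95% interval -0.41 to 0.16, edgeR adjusted p = 0.511). Ppl (ENSMUSG00000039457.3, chromosome 16, 5086291 to 5132421, minus strand) had 746, 841, 817 and 707 CPM in CTR and 574, 705, 930 and 757 CPM in SKO. Again SKO 1 was lowest and SKO 3 highest of all 8 libraries. The means were 778 ± 62.0 and 742 ± 147 CPM (log2 fold change -0.07, SE 0.13, 95% interval -0.37 to 0.23, edgeR adjusted p = 0.741). Without SKO 1 the Ppl value was 0.041.

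The balance of the 2 scaffold genes was alike in both groups within its spread. The log2 ratio of Evpl to Ppl counts was -0.60, -0.81, -0.50 and -0.38 in CTR 1 to 4 and -0.61, -0.68, -0.74 and -0.47 in SKO 1 to 4. The groups overlapped, and their means differed by -0.05 (exact permutation p = 0.657, adjusted p = 0.657 over 5 ratios, n = 4 per group). Per kilobase of exon, Evpl had 81.9 ± 7.21 and Ppl 113 ± 8.995 CPM in CTR, and 75.2 ± 13.7 and 108 ± 21.4 CPM in SKO.

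Among the granular layer proteins, Asprv1 rose and the others were not called. Asprv1 (ENSMUSG00000033508.7, chromosome 6, 86628164 to 86629710, plus strand) is a gene with 1 exon whose product, a retroviral-like aspartic protease, cleaves profilaggrin. It had 673, 757, 875 and 879 CPM in CTR 1 to 4 and 1712, 1109, 1697 and 1231 CPM in SKO 1 to 4. All SKO libraries lay above all CTR libraries, with SKO 1 and SKO 3 far above SKO 2 and SKO 4. The means were 796 ± 99.8 and 1437 ± 313 CPM, a log2 fold change of 0.85 (SE 0.16, 95% interval 0.51 to 1.199).

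Casp14, the protease gene of cornifying keratinocytes and of the inner root sheath, was the most variable of the 10 genes in SKO (ENSMUSG00000005355.8, chromosome 10, 78711991 to 78718294, minus strand). Its levels were 66.8, 71.8, 90.8 and 79.9 CPM in CTR 1 to 4 and 54.3, 68.1, 130 and 79.6 CPM in SKO 1 to 4. SKO 1 was below every CTR library and SKO 3 above every one. The means were 77.3 ± 10.5 and 82.9 ± 32.8 CPM (log2 fold change 0.10, SE 0.23, 95% interval -0.40 to 0.61, edgeR adjusted p = 0.776). Without SKO 3 the value was -0.20 (adjusted p = 0.327), so its sign rested on that library. The order of the SKO libraries was not that of Asprv1, where SKO 1 was highest. The log2 ratio of Casp14 to Asprv1 was -3.33, -3.40, -3.27 and -3.46 in CTR and -4.98, -4.03, -3.71 and -3.95 in SKO. It was lower in every SKO library, by 0.80 on average (exact permutation p = 0.0286, n = 4 per group, adjusted p = 0.0357 over the 5 ratios), or by 0.53 without SKO 1. The adjusted p of this ratio in the exact test was 0.0714 with any 1 CTR library left out.

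Cdsn (ENSMUSG00000039518.7, chromosome 17, 35552128 to 35557180, plus strand), the corneodesmosome adhesion gene, had 1141, 1321, 1289 and 1429 CPM in CTR 1 to 4 and 1203, 1185, 1641 and 1562 CPM in SKO 1 to 4. SKO 3 and SKO 4 exceeded the CTR range, and SKO 1 and SKO 2 lay in its lower part. Its log2 fold change was 0.11 (SE 0.13, 95% interval -0.17 to 0.39, edgeR adjusted p = 0.553). Cnfn (ENSMUSG00000063651.11, chromosome 7, 25367620 to 25369724, minus strand), an envelope component, had 175, 179, 217 and 250 CPM in CTR and 212, 195, 244 and 250 CPM in SKO. All of its SKO values lay within the CTR range, and the log2 fold change was 0.13 (SE 0.13, 95% interval -0.15 to 0.42, edgeR adjusted p = 0.478). Krtdap (ENSMUSG00000074199.7, chromosome 7, 30787896 to 30791097, plus strand), which encodes a small secreted protein of differentiating keratinocytes, had 991, 685, 1016 and 1198 CPM in CTR and 1286, 1002, 1100 and 1389 CPM in SKO. SKO 1 and SKO 4 lay above the CTR range, and CTR 2 was the lowest of all 8 libraries. The log2 fold change was 0.30 (SE 0.16, 95% interval -0.07 to 0.66, edgeR adjusted p = 0.214), so that changes up to 1.58-fold higher lay within the interval. With mice of neighbouring animal numbers as a replicate block, Krtdap was called higher (log2 fold change 0.31, edgeR adjusted p = 0.0394). Within each such pair, which share their library number here, the SKO library was above the CTR library.

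**Figure D3:**
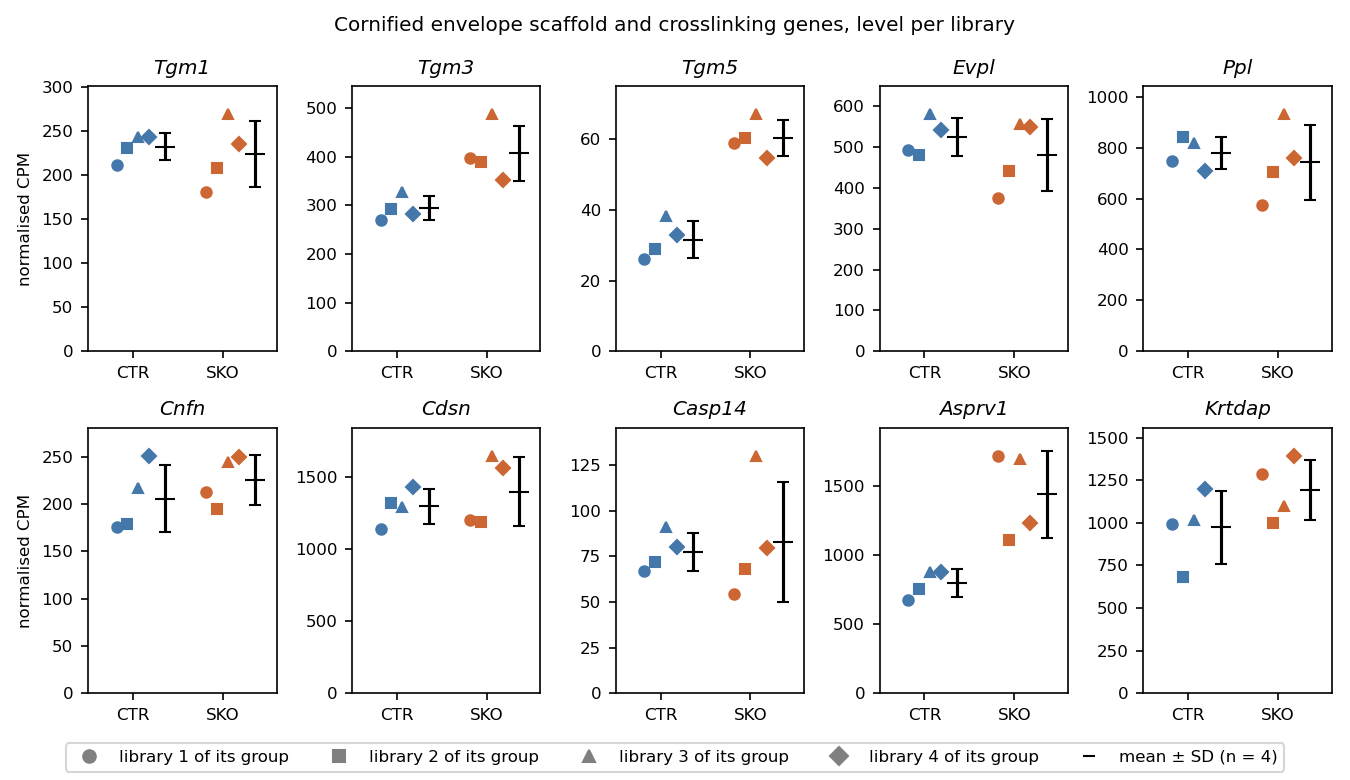
Normalised CPM (y axis, from 0) of each of the 10 genes in the 4 CTR (blue) and 4 SKO (orange) libraries; symbols mark the library number, and black bars give the mean ± SD. For Tgm3, Tgm5 and Asprv1 every SKO library is above every CTR library, and for the other 7 genes the groups overlap.

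The transcripts of the 10 genes differed in abundance by a wide range when counted per kilobase of exon. In CTR, Krtdap was the most abundant at 1432 ± 314 CPM per kilobase, followed by Asprv1 (514 ± 64.5), Cdsn (484 ± 44.3), Cnfn (286 ± 49.0), Ppl (113 ± 8.995), Evpl (81.9 ± 7.21), Tgm1 (73.5 ± 4.80), Tgm3 (71.0 ± 5.96), Casp14 (32.3 ± 4.37) and Tgm5 (10.0 ± 1.68). Neighbours in this order overlapped between their CTR libraries for Asprv1 and Cdsn, for Evpl and Tgm1, and for Tgm1 and Tgm3. The other neighbours did not overlap. In SKO, Asprv1 reached 929 ± 202 CPM per kilobase, against 522 ± 88.8 for Cdsn.

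Some libraries stood at one end of their group for many of the 10 genes. SKO 3 had the highest SKO level for 7 genes, SKO 4 for 2 and SKO 1 for 1. The lowest SKO level was that of SKO 1 for 4 genes, of SKO 2 for 4 and of SKO 4 for 2. In CTR, the first library was lowest for 7 genes. SKO 3 also had the highest hair shaft marker sum of the SKO libraries (1378 CPM), and SKO 1 the lowest (149 CPM). The summed tail scale keratins Krt36 and Krt84 were 12324, 23551, 40786 and 52931 CPM in SKO 1 to 4, and 36520 to 52409 CPM in CTR. SKO 1 and SKO 2, which were low in scale keratins, were also the libraries in which Evpl, Tgm1 and Ppl lay below the CTR range. For SKO 2 the margin was small in Ppl (705 against 707 CPM in the lowest CTR library) and Tgm1 (209 against 212 CPM).

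**Figure D4:**
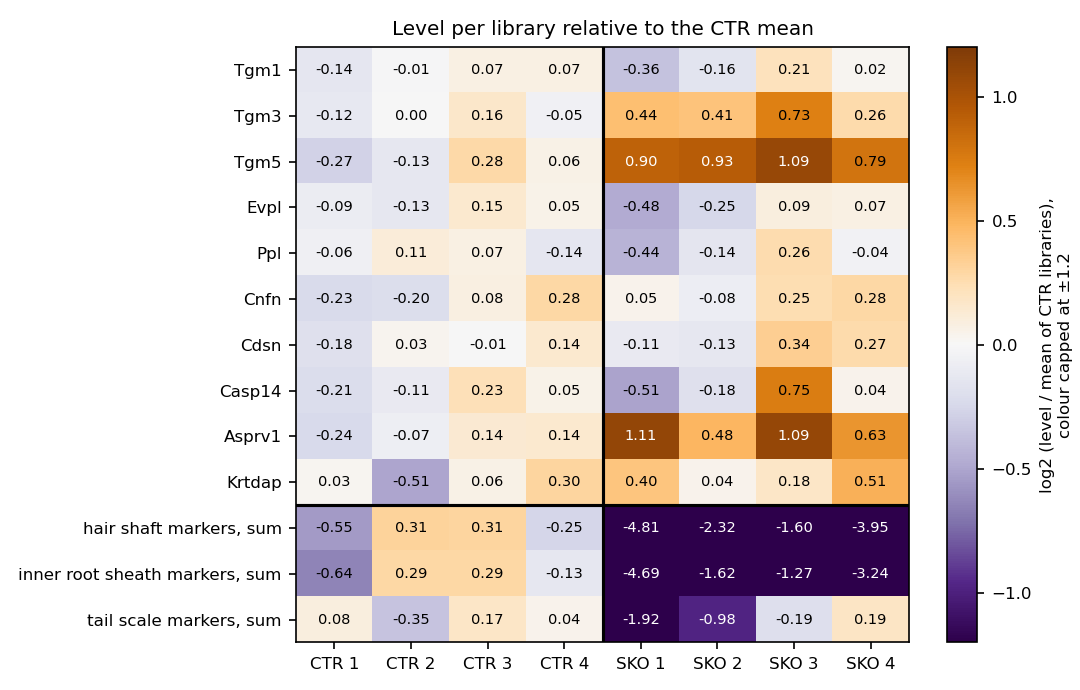
Log2 ratio of each library's level to the mean of the CTR libraries, for the 10 genes and for the summed CPM of 3 marker lists (rows), in 4 CTR and 4 SKO libraries (columns); colours are capped and the numbers give the values. Tgm3, Tgm5 and Asprv1 are above 0 in all SKO libraries, hair markers are below 0 in all of them, and tail scale markers are at -1.92 in SKO 1 and 0.19 in SKO 4.

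Other genes of envelope assembly were looked at in 8 lists with 104 tested genes, of which 14 were called higher and 13 lower, with a median log2 fold change of -0.01. These counts were near the shares of all tested genes, 11.5% higher and 12.2% lower. The same shares belong beside the counts of each list below. DESeq2 called 22 higher, and the count of lower genes was 7 without CTR 3 or SKO 4 and 21 without SKO 3. The substrates that transglutaminases join moved both ways, with 9 of 27 higher and 3 lower (median log2 fold change 0.23). Krt1, which encodes the type II keratin of suprabasal cells, went up from 2488 ± 430 to 18366 ± 4854 CPM (adjusted p = 9.43e-05). The other substrate genes called higher had log2 fold changes of 0.38 to 1.32. The 3 that fell were Tchhl1, Crnn and Tchh, the last encoding trichohyalin of the inner root sheath, with log2 fold changes of -3.01, -2.43 and -2.27. Across SKO 1 to 4, Tchh had 73.5, 767, 951 and 235 CPM, the same order as the inner root sheath marker sum (290, 2429, 3098 and 792 CPM), of which Tchh is itself part. The Tchh call ended in the robust fit and without CTR 2, CTR 3 or SKO 4 (edgeR adjusted p = 0.0598 to 0.0916). The groups did not overlap for Krt1, Tchhl1, Crnn and Tchh.

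Of the 16 tested genes for filaggrin processing and granular layer proteases, the group that holds the partners of Casp14 and Asprv1, 4 rose and 3 fell (median log2 fold change 0.22). The inhibitor gene Serpinb12 rose from 406 ± 22.8 to 690 ± 149 CPM (adjusted p = 0.00415). The 3 that fell were the peptidylarginine deiminase genes Padi3, Padi1 and Padi4, with log2 fold changes of -2.43, -2.34 and -0.89. Hair shaft marker sums were lower in every SKO library than in any CTR library, and the part of hair cells in the Padi levels was not tested. The calls of Padi3 and Padi4 ended under some alternatives (adjusted p up to 0.0789 and 0.0852), Padi3 in the robust fit and without CTR 3 or SKO 4, Padi4 without any 1 library other than CTR 1 and SKO 3. Dmkn and Sbsn, the secreted peptide genes that lie beside Krtdap on chromosome 7, had log2 fold changes of 0.24 and 0.26, close to the 0.30 of Krtdap. Neither was called by edgeR (adjusted p = 0.12 and 0.0761), although both had an unadjusted p below 0.05. With the replicate block their adjusted p was 0.0497 and 0.0513, so that Dmkn was called, and Sbsn was called by DESeq2, with library totals alone and without SKO 2 (adjusted p = 0.0287, 0.0393 and 0.0422).

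Of 10 tested genes for other plakins and desmosomal attachment, 0 rose and 1 fell (median log2 fold change -0.14). Dsg1a, which shares sequence with its paralogs so that reads could be split, went from 2462 ± 174 to 1992 ± 103 CPM (adjusted p = 0.0252). That call ended without any 1 library other than CTR 4 and SKO 3 (adjusted p up to 0.0700). Dsp, the desmosomal plakin gene, had a log2 fold change of -0.13 (adjusted p = 0.432), or -0.26 without SKO 3 (adjusted p = 0.0391). None of 17 lipid envelope genes was called by edgeR, with 4 at an unadjusted p below 0.05 and 3 called by DESeq2 (median log2 fold change -0.03). The most abundant of them, Elovl4 and Slc27a4, had log2 fold changes of 0.13 and 0.19.

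Of 18 transcription factor genes of terminal differentiation, 0 rose and 3 fell (median log2 fold change -0.15), beside 11.5% and 12.2% of all tested genes. Among them, Maf fell from 374 ± 45.9 to 209 ± 33.3 CPM and Gata3 from 115 ± 14.6 to 79.6 ± 7.199 CPM (edgeR adjusted p = 0.00203 and 0.00592). Gata3 is also one of the inner root sheath markers, of which 9 of 10 tested were called lower. The part of root sheath cells in its level was not tested. Of 11 tested calcium handling genes, 0 rose and 3 fell (median log2 fold change -0.13). They were the calcium pump gene Atp2b4, the phospholipase gene Plcd1 and the channel gene Trpv3, with log2 fold changes of -0.78, -0.41 and -0.32 (edgeR adjusted p = 0.00407, 0.0117 and 0.0375). The Trpv3 call ended without any 1 library other than SKO 3 (adjusted p up to 0.0959).

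**Figure D5:**
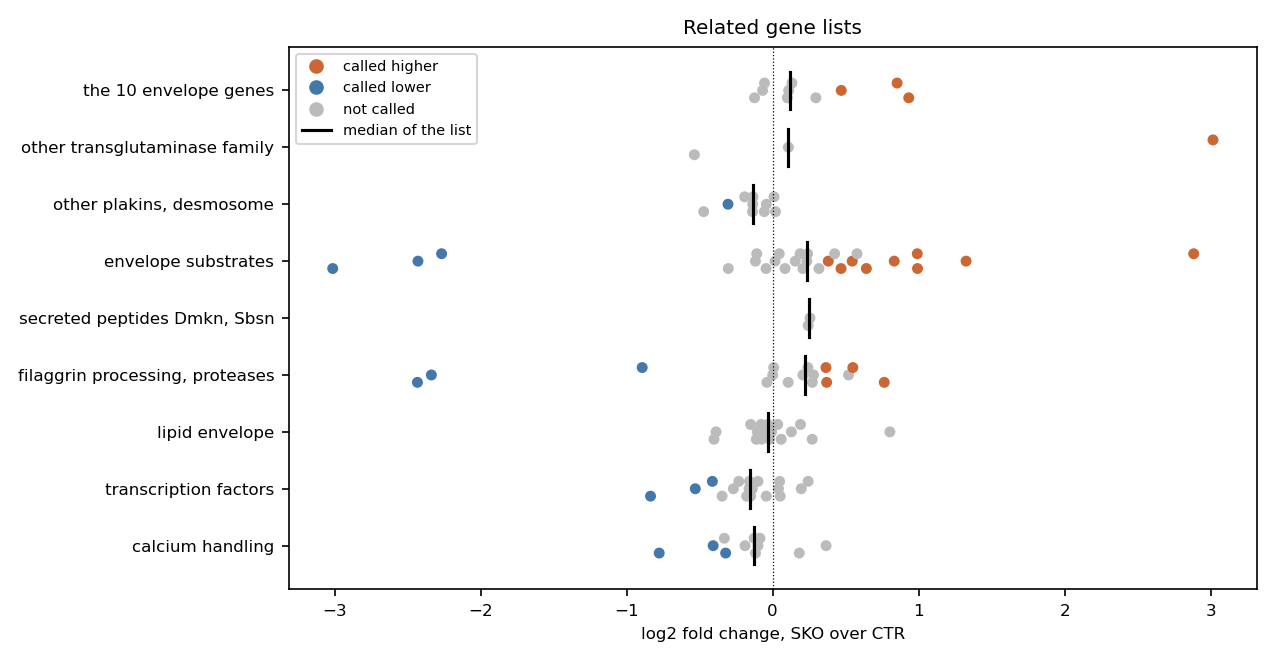
Log2 fold change, SKO over CTR (x axis), of each tested gene of the 10 envelope genes and of 8 related lists (rows); colour marks the call at an adjusted p below 0.05 and the black bar the median of the list. The 10 genes have 3 called higher and 0 lower, and the substrate and filaggrin processing lists have calls in both directions.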

How the data were processed

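The authors deposited raw read counts per gene for 46983 Ensembl identifiers, with no normalization. Per the submitters' processing notes, tools included STAR 2.4.1d and featureCounts 1.4.6, with build GRCm38. The annotation release, strand setting and handling of multi-mapped reads are not given in the sources used here, so reads of overlapping or near-identical genes could be split. Exons of Tgm1 share 182 bases with an antisense gene that was not analysed here. Per the labels' protocols, epidermis was peeled after dispase, and stranded poly-A libraries were read as single 75 bp reads. GENCODE M21 gave symbols and positions for 46488 identifiers. Groups came from the genotype label and replicate numbers from sample order. The titles hold 4 CTR and SKO pairs of neighbouring animal numbers, which are the libraries with the same number here, although the labels do not say that such mice are littermates. Deviations from the group means over all tested genes correlated at 0.15 to 0.40 within these pairs, and each library correlated best with its neighbour, with the exception of SKO 3 (0.15 with CTR 3, 0.16 with CTR 2). A replicate block of these pairs was added as an alternative after the data were seen.

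Counts were tested with edgeR 4.0.16 (glmQLFit and glmQLFTest, two-sided, group as the only term, TMM factors, filterByExpr) on all 8 libraries, with Benjamini-Hochberg adjustment over 15638 genes. Standard errors are the log2 fold change divided by the root of F. Values are CPM scaled by TMM factors, as mean ± SD. Ratios of 5 gene pairs (0.5 counts added) were tested by exact permutation, with no alternative that used the replicate block. In data simulated for this comparison over 15638 genes, 6% of 50 genes changed by 1.25-fold, 38% of 50 by 1.5-fold, 84% of 50 by 2-fold and 90% of 50 by 4-fold were recovered, and 5 of 114 calls were false. The simulation made far fewer calls than the 3700 of the data, so its cutoff on the unadjusted p was stricter. Its changed genes were drawn from all tested levels, so these rates do not give the recovery of the 10 genes. No pair of libraries of a group agreed within sampling noise. Alternatives were other scalings, filters, a robust fit, DESeq2 1.42.0, another pseudocount and leaving out each library. The genes and lists were chosen with earlier results of these data known. All 10 genes are named, and from each related list up to 4 called genes, those with mean CPM of 1 or more and the largest change, or the most abundant genes up to 2. Eppk1 and Krt85, listed among related genes and markers, were not analysed here. A further gene that this rule selects is not reported here.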

Additional observations from a re-analysis of the deposited data

Results flagged for a closer look

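Among 78 groups of 4 libraries looked at (the 10 envelope genes, the related genes named and the 5 ratios), 3 held 1 library far from the other 3, and chance would give about 1 in 20. None of the 3 was one of the 10 genes or a ratio. Dsp was high in SKO 3, at 9644 CPM against 6937 to 7122 CPM in the other SKO libraries. Dsg1a was low in CTR 4, at 2203 CPM against 2528 to 2583 CPM in the other CTR libraries. Padi1 was low in CTR 1, at 16.4 CPM against 25.7 to 25.8 CPM in the other CTR libraries.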

How the results depend on the processing

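The calls of Tgm3, Tgm5 and Asprv1 held under all 16 alternatives (log2 fold change 0.37 to 0.53, 0.85 to 1.04 and 0.76 to 0.96, highest adjusted p 0.0372, 0.00387 and 0.0162). Krtdap was called only with neighbouring animal numbers as a replicate block (0.31, adjusted p 0.0394), an alternative added after seeing the data, and no other gene of the 10 was called under any. Among the related genes named, the block changed only the call of Dmkn (adjusted p 0.0497), and it gave 20 related genes higher and 19 lower. Signs changed for genes that were not called, with 1 library left out: Tgm1 (-0.16 to 0.038) and Ppl (-0.20 to 0.041) without SKO 1, Casp14 (-0.20 to 0.26) without SKO 3, Tgm2 (-0.044 to 0.30) without SKO 4, and Ppp1r8 (-0.21 to 0.048) without SKO 2. The ratio of Evpl to Ppl changed sign without CTR 4. With 1 library left out, the differences of the log2 ratios were 0.44 to 0.63 for Tgm3 to Tgm1, 0.92 to 1.08 for Tgm5 to Tgm1, -0.52 to -0.43 for Tgm3 to Tgm5, -0.95 to -0.53 for Casp14 to Asprv1 and -0.13 to 0.011 for Evpl to Ppl. The adjusted p of all but Evpl to Ppl in the exact test was 0.0714 with a CTR library left out and 0.0357 with an SKO library left out. With 1 library left out the test has fewer than the 70 assignments of the full test. Its p moves in coarse steps in both cases, whichever group loses the library. Related genes called higher numbered 22 in DESeq2, and 12 to 18 with 1 library left out. Those called lower numbered 7 to 21 with 1 library left out, and the cause was not tested. Over all genes, 1253 to 2085 were higher and 1336 to 2312 lower. The scalings moved the median of all genes to at most 0.02. A term for sex was not run because no library had Y-linked counts. With 4 mice per group, small changes can be missed, although the simulated recovery does not give the rate for the 10 genes.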

Other observations

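Tgm6, the neighbour of Tgm3, had the same order of SKO libraries as the tail scale keratins, but another order of CTR libraries. Its levels in SKO 1 to 4 were 35.9, 57.3, 118 and 122 CPM, which is the order of the summed levels of Krt36 and Krt84 (12324, 23551, 40786 and 52931 CPM). In CTR 1 to 4 Tgm6 had 139, 105, 122 and 117 CPM, beside 49308, 36520, 52409 and 47741 CPM for the scale keratins, where CTR 2 was lowest in both but the highest library was CTR 1 for Tgm6 and CTR 3 for the keratins. Tgm3 did not share this order, with 398, 389, 486 and 353 CPM in SKO 1 to 4. These are values of 8 libraries with no test.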
